A study of Mus musculus with 10 samples.

Results

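The mitochondrial genome of the mouse encodes 37 genes, and all of them were followed here in plasma cells. Members were every row whose Ensembl identifier belongs to a GENCODE M21 gene (build GRCm38) with a symbol that starts with mt-, which gave 37 of 47719 genes. They are 13 mRNA genes, 2 rRNA genes and 22 tRNA genes. RNA-seq compared 5 libraries of IgG1 plasma cells with 5 libraries of IgM plasma cells, both sorted from mouse spleen as donor tdTomato+ cells. Both groups descend from transferred donor cells with S1PR2-CreERT2, the Ai14 reporter and B1-8germ. S1PR2-CreERT2 is a tamoxifen-dependent Cre driven by S1pr2, a gene active in germinal centre B cells. Ai14 makes tdTomato once Cre has acted, and B1-8germ is an unmutated heavy chain that can bind the hapten NP. The hosts were wild type and received NP-CGG in alum at day 0 and tamoxifen at days 5 and 6, and cells were sorted at day 10. Whether the 5 libraries of a group stem from 5 animals is not in the labels, and p-values here cover the spread of these libraries alone, which may be technical.

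Mitochondrial DNA is a small circle that is read from both strands into long RNAs. These are cut at the tRNAs that lie between most genes, and the freed mRNAs, apart from that of mt-Nd6, receive poly(A) tails. The mRNAs encode membrane subunits of respiratory complexes I, III and IV and of the ATP synthase, while the rRNAs and tRNAs build the translation system inside the organelle, and every other protein of these complexes is made from nuclear genes. Plasma cells draw on this ATP supply and on the precursors made in mitochondria while they secrete antibody.

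The estimated depth was 26500000 to 38600000 fragments in IgG1 and 27000000 to 31300000 in IgM libraries, and 13286 to 13961 genes were above 0 in IgG1 and 15121 to 15800 in IgM libraries. Immunoglobulin genes took 62.5% to 73.1% of summed FPKM in IgG1 and 68.7% to 73.5% in IgM libraries. The nuclear RNA Malat1 stood at 383 to 717 FPKM in IgG1 and 2666 to 3905 FPKM in IgM libraries, with no overlap. Of 8 plasma cell markers, 1 rose and 7 fell in IgG1 libraries, where 18.1% of all genes tested were higher and 20.2% lower. Their summed level was 23696 to 27159 FPKM in IgG1 and 40445 to 44637 FPKM in IgM libraries. Most of that sum was Jchain, which averaged 21143 ± 1531 FPKM in IgG1 and 38835 ± 1595 FPKM in IgM libraries (SD, n = 5 each). Xbp1, the marker that rose, averaged 3194 ± 116 FPKM in IgG1 and 2928 ± 124 FPKM in IgM libraries. Summed markers of T cells were 0.958 to 3.80 FPKM in IgG1 and 1.69 to 6.75 FPKM in IgM libraries. The 2 of them that were tested went opposite ways. Cd4 was called higher, at 1.87 ± 0.957 FPKM in IgG1 and 0.280 ± 0.274 FPKM in IgM libraries. Trac was called lower, at 0.201 ± 0.288 FPKM in IgG1 and 2.37 ± 1.03 FPKM in IgM libraries. Summed markers of monocytes and macrophages were 14.2 to 20.7 FPKM in IgG1 and 31.9 to 39.4 FPKM in IgM libraries. That gap was carried by Cd68, which averaged 12.9 ± 1.71 FPKM in IgG1 and 31.2 ± 3.11 FPKM in IgM libraries (SD, n = 5 each), and the other 6 of these markers summed to at most 6.44 FPKM in IgG1 and 6.23 FPKM in IgM libraries, with overlap. Neutrophil, red cell, platelet and stromal sums stayed at or under 7.77 FPKM, and S100a8, S100a9, Elane, Mpo, Gp9, Gp1bb, Col1a1 and Pdgfrb were at 0 in all 10 libraries. The part of these library differences in the mitochondrial results was not tested. IgG1 replicates 4 and 5 stood apart from the other IgG1 libraries for mt-Co1, and the called members and the spread within the groups are given without them too.

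Mitochondrial mRNAs were lower in IgG1 than in IgM plasma cells for 6 of the 13 genes, and none was higher, except that mt-Co3 was called higher at a common total without immunoglobulin J and D segments, and mt-Nd3 after quantile normalization and without IgM replicate 2. The fall was largest for mt-Nd6 and mt-Nd5, subunits of complex I, at 0.532 and 0.556 of the IgM mean, and smaller for mt-Nd4, mt-Cytb, mt-Co1 and mt-Co2. Neither rRNA and none of the 9 tRNAs tested passed. Thus 6 of the 24 members tested were called, where 38.3% of all genes tested were, 18.1% higher and 20.2% lower. Differences are on the scale log2(FPKM + 1), IgG1 minus IgM, from limma over the 9900 genes that averaged 1 FPKM or more, with Benjamini-Hochberg adjustment over all of them and a threshold of 0.05. FPKM counts fragments relative to the length of the transcript and to the mapped fragments of the library.

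Of the 37 genes, 24 reached a mean of 1 FPKM and were tested, among them all 13 mRNAs and both rRNAs. Of these 24, 0 were called higher and 6 lower in IgG1 libraries, where over all genes tested 38.3% were called, 18.1% higher and 20.2% lower. The 6 called genes were also the 6 whose groups did not overlap, all lower in IgG1. Over all genes tested the groups did not overlap for 26.3%, and were apart with IgG1 lower for 13.3%. At the common total without J and D segments, whose short models take a large and uneven part of FPKM, 1 member was higher and 4 were lower, where 40.7% of genes were called, 28.7% higher and 12.0% lower. Leaving out IgG1 replicates 4 and 5 gave 0 higher and 6 lower of 23 members, where 31.9% of genes were called, 14.6% higher and 17.4% lower. The median log2 difference was -0.36 over the 24 members and -0.05 over all genes tested. In bulk RNA of this kind, fewer cells of a type and less RNA per cell cannot be told apart.

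**Figure D1:**
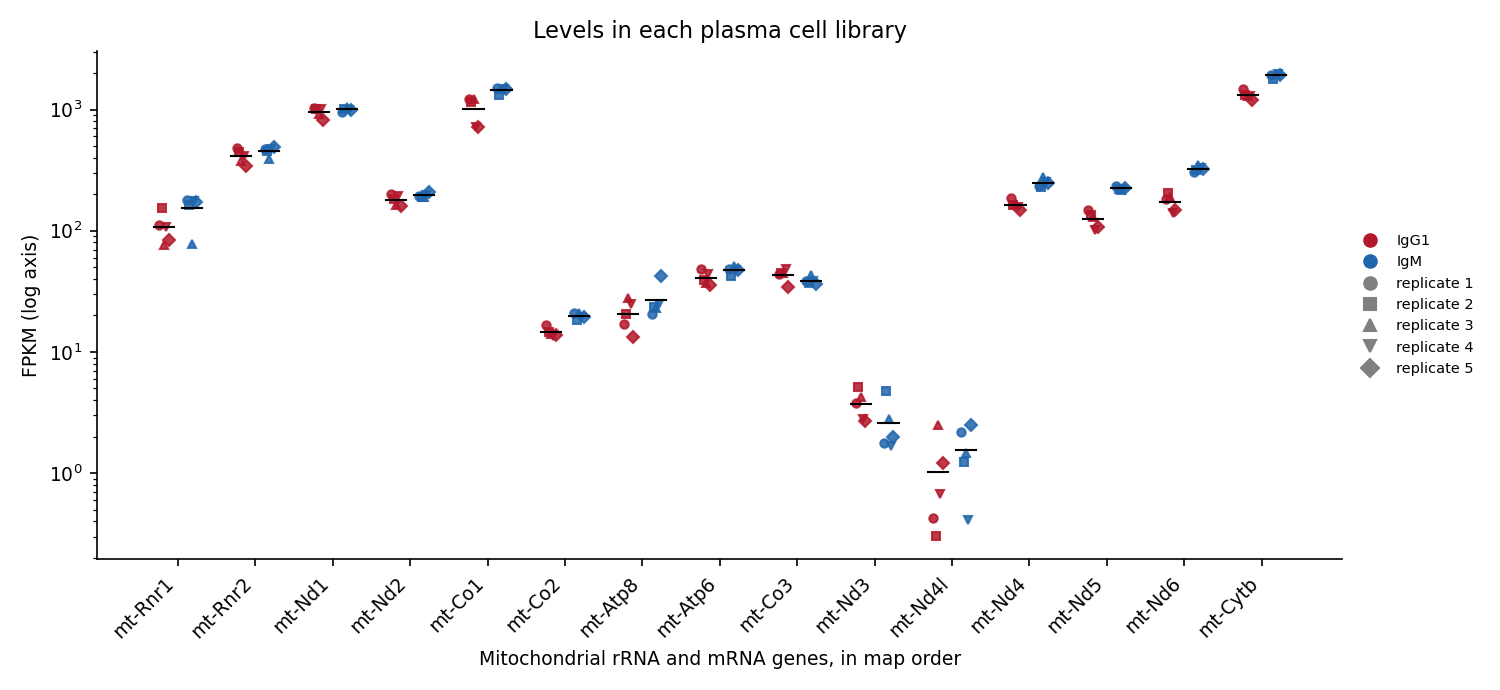
FPKM (log axis) of the 2 rRNA and 13 mRNA genes in each library, in the order of the mitochondrial map, with IgG1 in red left of IgM in blue, a marker shape for each replicate and a black line at the group mean. mt-Nd4, mt-Nd5, mt-Nd6 and mt-Cytb sat lower in all 5 IgG1 libraries than in any IgM library, and 6 genes in the middle of the map stood at or under 50.9 FPKM.

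The levels fall into blocks that follow a nuclear copy of the mitochondrial genome. On chromosome 1, 7 annotated pseudogenes lie side by side on the minus strand at chr1:24611535-24616197, a stretch of 4663 bases. Each of the 7 matched a mitochondrial gene with at least 99% identity. From the first to the last match they span 4653 bases of mitochondrial DNA, chrM:6390-11042. Bases between the annotated copies were not compared. The stretch begins at base 1063 of mt-Co1, takes in all of mt-Co2, mt-Atp8, mt-Atp6, mt-Co3, mt-Nd3 and mt-Nd4l, and ends inside mt-Nd4, whose last 502 bases lie outside. No annotated copy of mt-Atp8 was matched, but the gap between the copies of mt-Co2 and mt-Atp6 measured 233 bases on chromosome 1 and 233 bases in mitochondrial DNA. Fragments from the matched bases can fall on either place, and how such fragments were assigned is not given in the sources used here.

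The first 60 bases of mt-Co2 are shown with those of its copy Gm28661, because not a single base tells them apart, as over all 681 aligned bases. For mt-Nd3 and its copy Gm28438, the start of the gene holds the only mismatch, T3C, and the stretch of mt-Co1 from base 1063 differs from Gm29216 only by A1066T. Capitals mark the bases that differ, positions count from base 1 of the mitochondrial gene with the mitochondrial base first, and each sequence runs 5′ to 3′ along its gene as in the GENCODE M21 transcripts (GRCm38).
mt-Co2, chrM:7013-7072, plus strand: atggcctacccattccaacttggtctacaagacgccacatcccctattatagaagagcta
Gm28661, chr1:24615506-24615565, minus strand: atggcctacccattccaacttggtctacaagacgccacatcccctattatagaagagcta
mt-Nd3, chrM:9459-9518, plus strand: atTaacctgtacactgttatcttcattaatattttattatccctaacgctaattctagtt
Gm28438, chr1:24613060-24613119, minus strand: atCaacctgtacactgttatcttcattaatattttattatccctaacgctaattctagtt
mt-Co1, chrM:6390-6449, plus strand: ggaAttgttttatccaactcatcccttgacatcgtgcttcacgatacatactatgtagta
Gm29216, chr1:24616129-24616188, minus strand: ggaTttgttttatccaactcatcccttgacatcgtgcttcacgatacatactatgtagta

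By contrast mt-Cytb, which lies outside the stretch, matched Gm11410 on chromosome 4 with 92.9% identity, and that pseudogene reached at most 0.0392 FPKM. Within the 60 bases shown, the differences C61T, T66C, C78T, T108C and G115A, in capitals, set the copy apart. The other 14 nuclear matches of mitochondrial genes, Gm11410 among them, had at most 97.6% identity, and without Cep295, a centrosome gene with a short match to mt-Ty, none exceeded 1.62 FPKM.
mt-Cytb, chrM:14205-14264, plus strand: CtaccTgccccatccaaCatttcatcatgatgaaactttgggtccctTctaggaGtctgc
Gm11410, chr4:80004049-80004108, plus strand: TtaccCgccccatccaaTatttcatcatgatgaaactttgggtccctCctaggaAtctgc

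The 6 mRNA genes that lie wholly in the copied stretch ranged over the 10 libraries from 0.303 to 50.9 FPKM. The 5 that lie outside it, mt-Nd1, mt-Nd2, mt-Nd5, mt-Nd6 and mt-Cytb, ranged from 102 to 1968 FPKM, and mt-Nd4 and mt-Co1, partly inside, from 149 to 1512 FPKM. The highest value inside was thus below the lowest value outside. The levels of the copies were close to those of their mitochondrial genes for mt-Co2, mt-Atp6 and mt-Co3, at 0.888 to 1.20, 1.12 to 1.34 and 0.964 to 1.22 times the level of the gene over the 10 libraries. Levels and differences of the 6 genes inside the stretch are therefore uncertain, and those of mt-Co1 and mt-Nd4 in part.

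**Figure D2:**
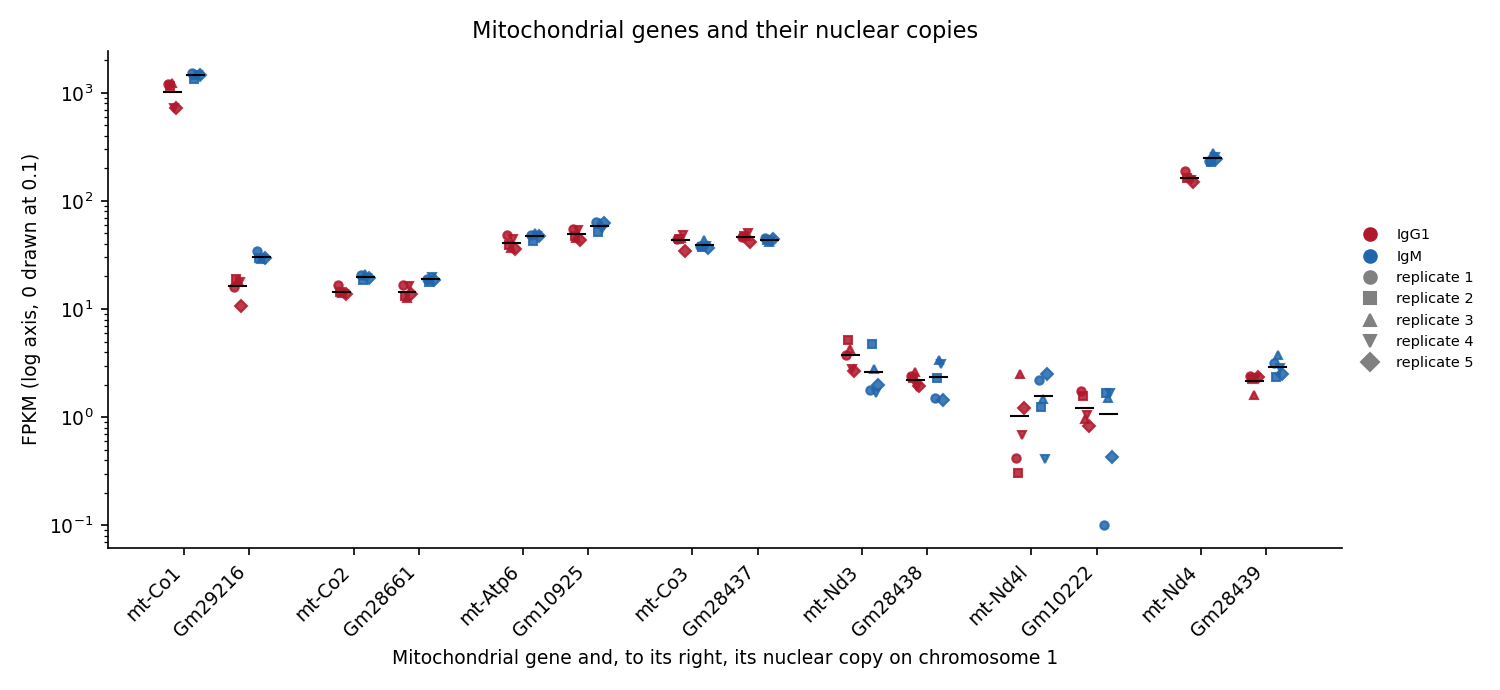
FPKM (log axis, 0 drawn at 0.1) of 7 mitochondrial genes and, right of each, its near-identical copy on chromosome 1, with IgG1 in red left of IgM in blue, a marker shape for each replicate and a black line at the mean. Gene and copy stand at like levels for mt-Co2, mt-Atp6 and mt-Co3, whereas Gm29216 and Gm28439, which cover only part of mt-Co1 and mt-Nd4, stand far below them.

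The copies were tested in the same fit over all genes. Gm28661 averaged 14.5 ± 1.89 FPKM in IgG1 and 18.8 ± 0.765 FPKM in IgM libraries (SD, n = 5 each), a log2 difference of -0.36 ± 0.12 (SE, limma adjusted p = 0.0233). Gm10925, the copy of mt-Atp6, had a log2 difference of -0.27 ± 0.09 (adjusted p = 0.0269), and Gm28437, the copy of mt-Co3, one of 0.09 ± 0.08 (adjusted p = 0.384). At a common total without J and D segments both calls ended, with log2 differences of -0.16 for Gm28661 (adjusted p = 0.332) and -0.06 for Gm10925 (adjusted p = 0.642). The call of Gm28661 also ended under quantile normalization (adjusted p = 0.0935) and at a common level of mt-Nd1 (0.111), and that of Gm10925 with no filter (0.105), under eBayes without trend or robust fitting (0.0575), at a common level of mt-Nd1 (0.169) and without IgG1 replicates 4 and 5 (0.0581). Among single libraries left out, the call of Gm28661 ended without IgG1 replicate 2 or 3 or IgM replicate 4 (adjusted p 0.0535 to 0.0577), and that of Gm10925 without IgG1 replicate 2, 3 or 5 or IgM replicate 1, 3 or 5 (adjusted p 0.0547 to 0.0693). Gm29216, the copy of the end of mt-Co1, had 15.8, 19.0, 18.8, 17.8 and 10.7 FPKM in IgG1 libraries 1 to 5, against 34.4, 29.4, 29.0, 28.9 and 29.4 FPKM in IgM libraries 1 to 5. Its groups did not overlap, and its log2 difference was -0.86 ± 0.14 (adjusted p = 8.14e-05). Gm28438, Gm28439 and Gm10222, the copies of mt-Nd3, mt-Nd4 and mt-Nd4l, stayed at or under 3.78 FPKM and did not pass.

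The small ribosomal RNA mt-Rnr1 (chrM:70-1024) had 112, 155, 76.7, 107 and 83.9 FPKM in IgG1 libraries 1 to 5, against 179, 164, 77.4, 175 and 172 FPKM in IgM libraries 1 to 5. IgM replicate 3 lay far under the other IgM libraries, among the lowest IgG1 values, so the groups overlapped. The log2 difference was -0.50 ± 0.29 (SE, limma adjusted p = 0.212), and without IgM replicate 3 it was -0.73 (adjusted p = 0.0177). The large ribosomal RNA mt-Rnr2 (chrM:1094-2675) had 483, 446, 373, 413 and 340.0 FPKM in IgG1 libraries, against 468, 457, 387, 473 and 488 FPKM in IgM libraries, and the groups overlapped (log2 difference -0.15 ± 0.09, adjusted p = 0.216). The libraries were made with an mRNA kit, and the part of priming in the rRNA levels was not tested.

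Complex I, which takes electrons from NADH, has 7 subunits encoded in mitochondrial DNA. Its genes near the start of the heavy-strand map did not pass. mt-Nd1 (chrM:2751-3707), a membrane subunit beside the quinone site, had 1026, 1017, 914, 1008 and 816 FPKM in IgG1 libraries 1 to 5, against 961, 1008, 1050.2, 997 and 1000.1 FPKM in IgM libraries 1 to 5. IgG1 replicates 1, 2 and 4 lay in the IgM range, and replicates 3 and 5 lay under it (log2 difference -0.07 ± 0.06, adjusted p = 0.314). mt-Nd2 (chrM:3914-4951), a proton-pumping subunit, had 199, 182, 164, 194 and 161 FPKM in IgG1 libraries, against 195, 191, 191, 195 and 209 FPKM in IgM libraries. The groups overlapped (log2 difference -0.13 ± 0.06, 95% interval -0.26 to 0.01, adjusted p = 0.13).

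Farther along the same strand mt-Nd4 and mt-Nd5 were lower in IgG1 libraries. mt-Nd4 (chrM:10167-11544, ENSMUSG00000064363), a proton-pumping subunit, had 187, 164, 166, 156 and 149 FPKM in IgG1 libraries 1 to 5, against 235, 228, 276, 253 and 246 FPKM in IgM libraries 1 to 5. The groups did not overlap, and the log2 difference was -0.59 ± 0.07 (adjusted p = 1.84e-06). mt-Nd5 (chrM:11742-13565, ENSMUSG00000064367), the proton-pumping subunit at the far end of the membrane arm, had 148, 135, 129.9, 102 and 107 FPKM in IgG1 libraries, against 233, 222, 215, 221 and 225 FPKM in IgM libraries. Every IgG1 value lay under the lowest IgM value, with replicates 4 and 5 lowest, and the log2 difference was -0.86 ± 0.09 (adjusted p = 4.25e-07). Without IgG1 replicates 4 and 5 the difference was -0.52 for mt-Nd4 (adjusted p = 4.77e-05) and -0.70 for mt-Nd5 (adjusted p = 7.46e-07).

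mt-Nd6 (chrM:13552-14070, ENSMUSG00000064368), another membrane subunit of complex I, is the 1 mRNA gene on the minus strand. It had 183, 205, 189.6, 139 and 148 FPKM in IgG1 libraries 1 to 5, against 304, 316, 351, 329 and 324 FPKM in IgM libraries 1 to 5. The groups were far apart, and the log2 difference of -0.92 ± 0.09 was the lowest of the 15 mRNA and rRNA genes (adjusted p = 1.64e-06). Leaving out IgG1 replicates 4 and 5 gave -0.75 (adjusted p = 3.49e-07). The libraries do not keep strand, and RNA of the opposite strand runs through this stretch between mt-Nd5 and mt-Cytb, so reads of mt-Nd6 and of that RNA cannot be told apart. The ratio of mt-Nd6 to mt-Nd5 was 1.39 ± 0.106 in IgG1 and 1.46 ± 0.118 in IgM libraries (SD, n = 5 each), with overlap.

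The short complex I genes mt-Nd3 and mt-Nd4l lie in the copied stretch and had little signal, at an estimated 6.9 to 29.4 and 1.1 to 9.5 fragments a library. mt-Nd3 (chrM:9459-9806), a small subunit at the junction of its arms, had 3.79, 5.16, 4.23, 2.78 and 2.70 FPKM in IgG1 libraries, against 1.79, 4.76, 2.78, 1.67 and 1.98 FPKM in IgM libraries. The IgG1 values leaned higher, except that IgM replicate 2 was second of all 10 (log2 difference 0.43 ± 0.24, adjusted p = 0.168; 0.62 without IgM replicate 2, adjusted p = 0.0417). mt-Nd4l (chrM:9877-10173), a small membrane subunit, had 0.423, 0.303, 2.49, 0.678 and 1.21 FPKM in IgG1 libraries, against 2.19, 1.24, 1.48, 0.408 and 2.48 FPKM in IgM libraries. These values spread over the same range in both groups (log2 difference -0.37 ± 0.31, adjusted p = 0.378).

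mt-Cytb (chrM:14145-15288, ENSMUSG00000064370) encodes cytochrome b, the subunit of complex III that holds both of its quinone sites, and had the highest mean of the 37 genes. IgG1 libraries 1 to 5 held 1471, 1328, 1301, 1289 and 1195 FPKM, against 1920.4, 1782, 1953, 1968 and 1920.3 FPKM in IgM libraries 1 to 5. The highest IgG1 value, in replicate 1, lay under the lowest IgM value, in replicate 2. The means were 1317 ± 99.7 FPKM in IgG1 and 1909 ± 74.1 FPKM in IgM libraries (SD, n = 5 each), and the log2 difference was -0.54 ± 0.05 (adjusted p = 9.24e-08). Without IgG1 replicates 4 and 5 it was -0.48 (adjusted p = 1.68e-06).

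Complex IV, cytochrome c oxidase, which passes electrons to oxygen, has its catalytic core in mt-Co1, mt-Co2 and mt-Co3. mt-Co1 (chrM:5328-6872, ENSMUSG00000064351), the subunit with the oxygen-binding haem, had 1217, 1163, 1229.9, 720.2 and 721 FPKM in IgG1 libraries 1 to 5, against 1512, 1326, 1463, 1475 and 1473 FPKM in IgM libraries 1 to 5. All IgG1 values lay under all IgM values, but they fell into an upper group of replicates 1 to 3 and a lower pair of replicates 4 and 5. The log2 difference was -0.56 ± 0.18 (adjusted p = 0.0403), and it passed in 13 of 25 alternatives. It did not pass without IgG1 replicate 4 (adjusted p = 0.0728), without IgG1 replicate 5 (0.0700) or without any single IgM library (0.0589 to 0.0805), whereas without both IgG1 replicates 4 and 5 it was -0.27 (adjusted p = 0.000293).

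mt-Co2 (chrM:7013-7696, ENSMUSG00000064354), which takes electrons from cytochrome c, had 16.6, 14.5, 14.1, 13.7 and 13.7 FPKM in IgG1 libraries 1 to 5, against 20.8, 18.5, 20.9, 19.3 and 19.3 FPKM in IgM libraries 1 to 5. The groups did not overlap, and IgG1 replicate 1 was the highest of its group (log2 difference -0.42 ± 0.11, adjusted p = 0.00576). With the FPKM of the identical copy Gm28661 added, the difference was -0.40 (adjusted p = 0.002), and at a common total without immunoglobulin J and D segments it was -0.22 and no longer passed (adjusted p = 0.154). mt-Co3 (chrM:8607-9390), the third core subunit, had 44.0, 44.4, 45.2, 48.0 and 34.7 FPKM in IgG1 libraries, against 38.4, 37.3, 43.3, 38.2 and 36.6 FPKM in IgM libraries. The values overlapped, with 4 of 5 IgG1 libraries above every IgM library (log2 difference 0.15 ± 0.10, adjusted p = 0.239; 0.35 without J and D segments, adjusted p = 0.0139).

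The ATP synthase takes 2 subunits from mitochondrial DNA, and their genes overlap. mt-Atp6 (chrM:7927-8607), which forms the proton path, had 48.8, 39.5, 36.9, 44.3 and 35.6 FPKM in IgG1 libraries, against 48.2, 42.4, 50.9, 47.0 and 47.7 FPKM in IgM libraries. The groups overlapped, and the log2 difference of -0.21 ± 0.10 did not pass (adjusted p = 0.101). With the copy Gm10925 added it was -0.24 and passed (adjusted p = 0.0269), as it did when IgG1 replicate 1 was left out (-0.27, adjusted p = 0.0325). mt-Atp8 (chrM:7766-7969), a short stalk subunit, had 17.2, 20.4, 27.9, 24.7 and 13.2 FPKM in IgG1 libraries, against 20.4, 23.7, 23.2, 24.8 and 42.2 FPKM in IgM libraries. IgM replicate 5 stood above the rest and the remaining values overlapped (log2 difference -0.36 ± 0.21, adjusted p = 0.209).

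**Figure D3:**
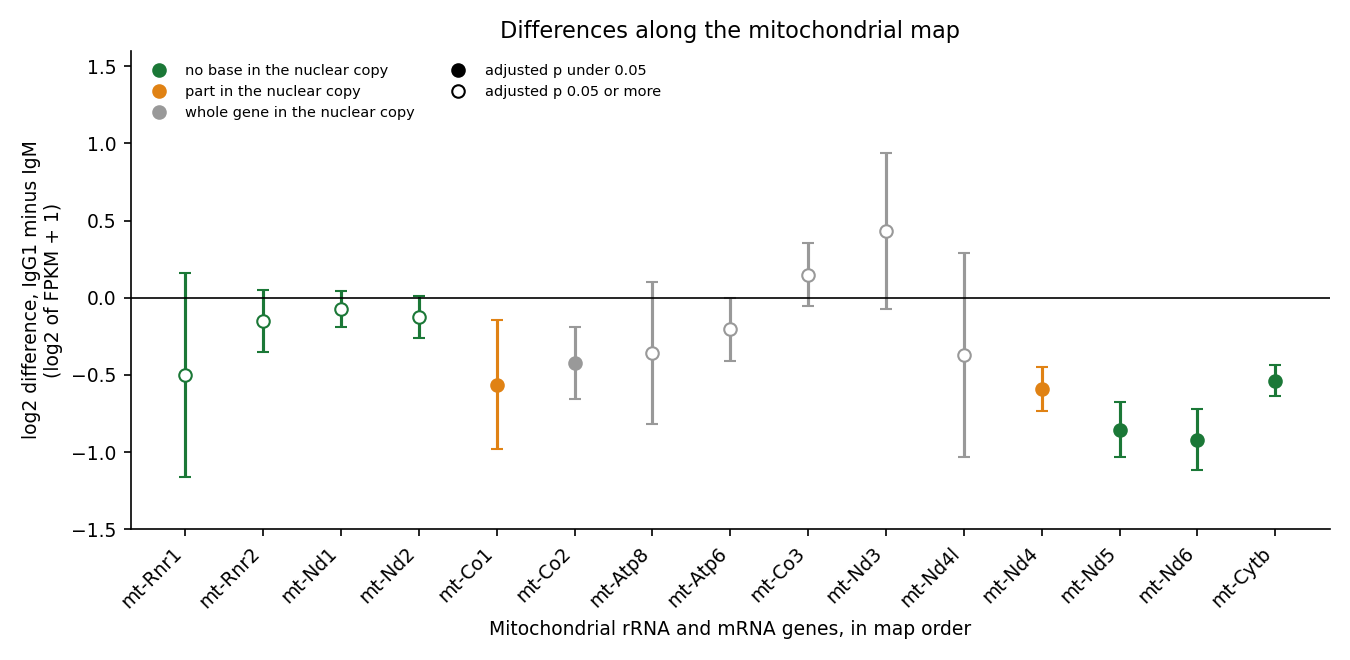
Log2 difference of FPKM + 1, IgG1 minus IgM, of the 2 rRNA and 13 mRNA genes in map order, with 95% intervals, filled where the adjusted p was under 0.05 and coloured by how much of the gene lies in the copied stretch. mt-Nd4, mt-Nd5, mt-Nd6 and mt-Cytb, at the far end, lie between -0.92 and -0.54, and mt-Rnr2, mt-Nd1 and mt-Nd2, near the start, between -0.15 and -0.07. However, mt-Rnr1, nearest the start, lies at -0.50, with a wide interval of -1.16 to 0.16.

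Outside the copied stretch, mt-Nd1 and mt-Nd2 near the start of the map differed less than mt-Nd5, mt-Nd6 and mt-Cytb farther along. This contrast was noticed after the values were seen. Among mt-Nd5, mt-Nd6 and mt-Cytb the difference did not follow the map, since mt-Cytb, the farthest, fell least (-0.54). After quantile normalization mt-Nd2 (-0.18) and mt-Cytb (-0.17) were no longer apart, while mt-Nd5 stood at -0.89 and mt-Nd6 at -0.96. The intervals of mt-Nd1 (-0.19 to 0.04) and mt-Nd2 (-0.26 to 0.01) do not reach those of mt-Cytb (-0.64 to -0.44), mt-Nd5 (-1.03 to -0.68) and mt-Nd6 (-1.12 to -0.72). The interval of mt-Rnr1 (-1.16 to 0.16) is too wide to place. mt-Rnr1, the gene nearest the start among these, was called lower without IgM replicate 3, which goes against that contrast. Ratios within a library stay the same when all its values are multiplied by a single factor, but quantile normalization can change them. The ratios give these differences in another form. They add no independent evidence, since mt-Nd1 was chosen as the divisor after its values were seen. The ratio of mt-Cytb to mt-Nd1 was 1.43, 1.31, 1.42, 1.28 and 1.46 in IgG1 libraries 1 to 5, against 2.00, 1.77, 1.86, 1.97 and 1.92 in IgM libraries 1 to 5. That of mt-Nd5 to mt-Nd1 was 0.144, 0.133, 0.142, 0.101 and 0.131 in IgG1 libraries, against 0.243, 0.220, 0.205, 0.222 and 0.225 in IgM libraries. In both ratios all IgG1 libraries lay under all IgM libraries.

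Likewise mt-Nd4 over mt-Nd1 averaged 0.172 ± 0.0133 in IgG1 and 0.247 ± 0.0136 in IgM libraries, and mt-Nd6 over mt-Nd1 0.181 ± 0.0271 in IgG1 and 0.324 ± 0.00862 in IgM libraries (SD, n = 5 each), without overlap. Near the start of the map the ratios overlapped, at 0.0838 to 0.152 in IgG1 against 0.0737 to 0.187 in IgM libraries (ranges) for mt-Rnr1, whose IgG1 mean was 0.720 of the IgM mean, 0.189 ± 0.00875 in IgG1 and 0.196 ± 0.0108 in IgM libraries for mt-Nd2, and 0.408 to 0.471 in IgG1 against 0.368 to 0.488 in IgM libraries (ranges) for mt-Rnr2. Among the far genes mt-Nd5 was lower even against mt-Cytb, at 0.0940 ± 0.00974 in IgG1 and 0.117 ± 0.00599 in IgM libraries, again without overlap. With all libraries brought to a common level of mt-Nd1, a scaling chosen after the data were seen, the same 6 genes were called lower and none higher, where 33.8% of all genes tested were called, 18.9% higher and 14.9% lower. The differences were then -0.46 for mt-Cytb, -0.52 for mt-Nd4, -0.78 for mt-Nd5 and -0.85 for mt-Nd6.

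**Figure D4:**
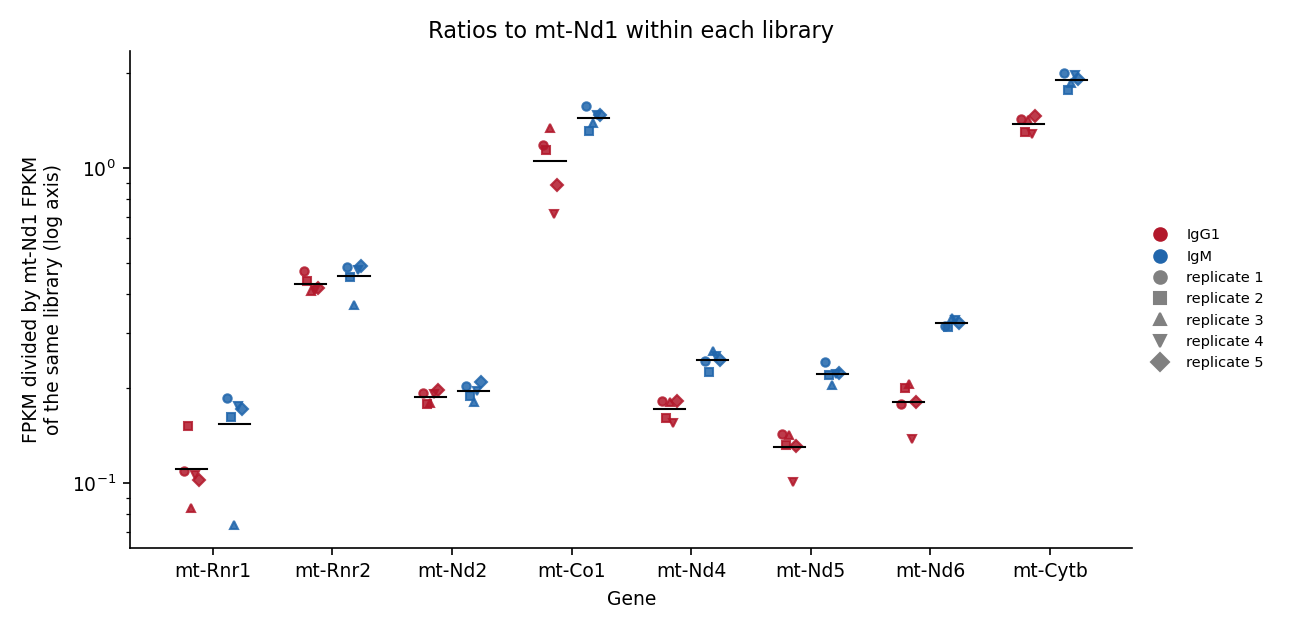
FPKM of 8 genes divided by the FPKM of mt-Nd1 in the same library (log axis), with IgG1 in red left of IgM in blue, a marker shape for each replicate and a black line at the mean. The ratios of mt-Nd4, mt-Nd5, mt-Nd6 and mt-Cytb lie lower in all IgG1 libraries, those of mt-Rnr1, mt-Rnr2 and mt-Nd2 overlap, and mt-Co1 splits the IgG1 libraries.

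The spread between libraries was larger in IgG1 than in IgM for most members, and for mt-Co1 it came from IgG1 replicates 4 and 5. Of the 15 mRNA and rRNA genes, 13 had a larger coefficient of variation (SD over mean) in IgG1, where 55.1% of all genes tested did. The coefficient was 26.3% in IgG1 and 4.93% in IgM libraries for mt-Co1, 15.6% in IgG1 and 2.94% in IgM for mt-Nd5, and 16.2% in IgG1 and 5.32% in IgM for mt-Nd6. The exceptions were mt-Atp8 (28.2% in IgG1, 32.5% in IgM) and mt-Nd3 (27.7% in IgG1, 49.5% in IgM). The summed mRNA level, 4049 ± 470.4 FPKM in IgG1 and 5491 ± 171 FPKM in IgM libraries, had a coefficient of 11.6% in IgG1 and 3.11% in IgM libraries. Without IgG1 replicates 4 and 5, the coefficient in the remaining IgG1 libraries was 2.97% for mt-Co1, below that of the IgM libraries, 6.70% for mt-Nd5, 5.80% for mt-Nd6 and 3.98% for the summed mRNA level. It was then larger in IgG1 for 11 of the 15 genes, where 45.9% of all genes tested had a larger one, and mt-Co1 and mt-Co3 were no longer among them. The replicates left out were picked for their low mt-Co1 values, so a smaller mt-Co1 coefficient without them was fixed by that choice. These coefficients are descriptions and were not tested.

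The widest split was that of mt-Co1. IgG1 replicates 4 and 5 averaged 720 FPKM, 0.599 of the 1203 FPKM of replicates 1 to 3. Of 943 genes that averaged 100 FPKM or more over the IgG1 libraries, 2 had both of these replicates lowest in the IgG1 group with a ratio this low. They were mt-Co1 and the kappa variable segment Igkv4-57. The replicates and the ratio were both taken from mt-Co1, which therefore passes by definition, so this count is a description and no test. Against mt-Cytb of the same library, mt-Co1 stood at 0.828, 0.875, 0.946, 0.559 and 0.603 in IgG1 libraries 1 to 5 and at 0.787, 0.745, 0.749, 0.750 and 0.767 in IgM libraries 1 to 5. IgG1 replicates 1 to 3 thus lay above every IgM library and replicates 4 and 5 below every one, so that the means, 0.762 ± 0.171 in IgG1 and 0.760 ± 0.0178 in IgM libraries, lay within the IgG1 spread of each other. Gm29216, which repeats the last 483 bases of mt-Co1, did not follow this split, since IgG1 replicate 4 held 17.8 FPKM and replicate 5 held 10.7 FPKM, against 15.8 to 19.0 FPKM in replicates 1 to 3. Replicates 4 and 5 were the lowest IgG1 libraries for 7 of the 15 genes, mt-Co1, mt-Co2, mt-Nd3, mt-Nd4, mt-Nd5, mt-Nd6 and mt-Cytb, and for 9.33% of all genes tested.

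The tRNA genes are 59 to 75 bases long, shorter than most fragments of such libraries, and few had any signal. Of 22, 13 were at 0 in all 10 libraries, 8 were above 0 in some and 1, mt-Tq, in all. An exact 0 here can be a failed estimate for so short a model. mt-Tq, the glutamine tRNA, is encoded on the minus strand and shares its end with mt-Ti on the other strand, and its 71 bases are shown because it alone could be followed in every library.
mt-Tq, chrM:3772-3842, minus strand: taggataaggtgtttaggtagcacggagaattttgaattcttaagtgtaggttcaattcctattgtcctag

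It had 704, 1169, 506, 657 and 989 FPKM in IgG1 libraries 1 to 5, against 1414, 461, 846, 447 and 300.4 FPKM in IgM libraries 1 to 5. The highest and the lowest value were both from IgM libraries, and the groups overlapped (log2 difference 0.37 ± 0.44, limma adjusted p = 0.546). Under the length correction assumed for the depth estimate, these values stand for 10.4 to 56.1 fragments a library. Reads of mt-Tq and of RNA from the other strand cannot be told apart.

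Of the other 21 tRNA genes, 16 of 210 values were above 0, the lowest at 47.1 FPKM. The proline tRNA mt-Tp was above 0 in 2 of 5 IgG1 and 3 of 5 IgM libraries, and the alanine tRNA mt-Ta in 2 of 5 of each. mt-Tv, for valine, was above 0 in 0 of 5 IgG1 and 2 of 5 IgM libraries. The other 5 had signal in 1 library each: mt-Tf (phenylalanine), mt-Tl1 (leucine) and mt-Tr (arginine) in an IgG1 library, mt-Tc (cysteine) and mt-Tt (threonine) in an IgM library. None of the 9 tRNA genes tested passed, and at 1 or 2 libraries above 0 these data cannot resolve a difference.

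Summed over the 37 genes, mitochondrial RNA was a small share of each library. It took 0.375, 0.462, 0.287, 0.343 and 0.253% of summed FPKM in IgG1 libraries 1 to 5, against 0.467, 0.365, 0.359, 0.425 and 0.410% in IgM libraries 1 to 5. The groups overlapped, with means of 0.344 ± 0.0812% in IgG1 and 0.405 ± 0.0442% in IgM libraries (SD, n = 5 each). Without immunoglobulin genes the share was 1.09 ± 0.155% in IgG1 and 1.42 ± 0.0956% in IgM libraries, without overlap. Without only the J and D segments the share was 0.419 ± 0.0689% in IgG1 and 0.462 ± 0.0167% in IgM libraries, with overlap. Weighted by gene length, which comes closer to a share of fragments, it was 0.247 ± 0.0377% in IgG1 and 0.314 ± 0.00583% in IgM libraries, also without overlap. The ratio of summed rRNA to summed mRNA FPKM was 0.128 ± 0.0134 in IgG1 and 0.111 ± 0.0161 in IgM libraries, with overlap. These sums are descriptions and were not tested.

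Nuclear genes of the respiratory chain and the ATP synthase mostly went the other way (below, means ± SD with n = 5 each, differences ± SE). The list also holds complex II, which takes no subunit from mitochondrial DNA, and cytochrome c. Of 18 nuclear partners of complexes I to V, 17 rose in IgG1 libraries and 0 fell, with a median log2 difference of 0.44. Over all genes tested, 18.1% were higher. Of 13 mitochondrial mRNAs, 0 were higher and 6 lower, with a median of -0.37. That median is the value of mt-Nd4l, which lies in the copied stretch and had an estimated 1.1 to 9.5 fragments a library. Over all genes tested the median was -0.05, and 0.13 at a common total without J and D segments. At that total the median of the partners was 0.65, and of the 24 mitochondrial members tested 1 was called higher and 4 lower. Uqcrc1, a core protein of complex III beside cytochrome b, averaged 239 ± 20.2 FPKM in IgG1 and 101 ± 9.27 FPKM in IgM libraries (log2 difference 1.24 ± 0.07, adjusted p = 1.30e-09). Cox6a1, a subunit of complex IV, averaged 760.0 ± 29.4 FPKM in IgG1 and 504 ± 18.8 FPKM in IgM libraries (log2 difference 0.59 ± 0.04, adjusted p = 9.90e-09). Cox5a, another subunit of complex IV, averaged 441 ± 23.3 FPKM in IgG1 and 294 ± 12.0 FPKM in IgM libraries (log2 difference 0.58 ± 0.05, adjusted p = 6.57e-08). The difference between the nuclear and the mitochondrial list was not tested.

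Markers of the mitochondrial membranes and matrix also rose, in 14 of 17 genes (82.4%) with 0 lower and a median of 0.57. Of all genes tested, 18.1% were higher and 20.2% lower. At a common total without J and D segments the median of these markers was 0.78. Slc25a5, an ADP/ATP carrier, averaged 721 ± 21.5 FPKM in IgG1 and 485 ± 13.4 FPKM in IgM libraries (log2 difference 0.57 ± 0.04, adjusted p = 7.91e-09). Phb, a prohibitin scaffold of the inner membrane, averaged 115 ± 9.41 FPKM in IgG1 and 53.1 ± 4.19 FPKM in IgM libraries (log2 difference 1.10 ± 0.08, adjusted p = 8.67e-09), and Hspe1, a chaperonin of the matrix, averaged 129 ± 9.32 FPKM in IgG1 and 74.1 ± 2.96 FPKM in IgM libraries (log2 difference 0.80 ± 0.07, adjusted p = 4.75e-08).

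The 11 nuclear genes for transcription of mitochondrial DNA had 2 higher and 3 lower (median 0.04), shares of 18.2% and 27.3% that lie near the 18.1% higher and 20.2% lower over all genes tested. Mrpl12, a ribosomal protein that in human cells also binds the mitochondrial RNA polymerase, averaged 53.7 ± 8.04 FPKM in IgG1 and 30.3 ± 1.18 FPKM in IgM libraries (log2 difference 0.79 ± 0.10, adjusted p = 9.28e-06). Mterf3, a repressor of mitochondrial transcription in mice, averaged 16.6 ± 3.46 FPKM in IgG1 and 30.7 ± 5.13 FPKM in IgM libraries (log2 difference -0.86 ± 0.15, adjusted p = 0.000159). Mterf2, of the same family, averaged 1.53 ± 0.428 FPKM in IgG1 and 4.37 ± 0.579 FPKM in IgM libraries (log2 difference -1.10 ± 0.19, adjusted p = 0.000222). The other calls were Tfb1m, higher, and Tfb2m, the initiation factor, lower, while the polymerase gene Polrmt and the packaging factor Tfam did not pass.

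Genes that cut, modify or degrade mitochondrial RNA had 5 of 30 higher and 4 lower (median 0.13), or 16.7% and 13.3%, against 18.1% and 20.2% over all genes tested. Elac2, which cuts the 3′ ends of tRNAs, averaged 13.5 ± 1.42 FPKM in IgG1 and 7.11 ± 1.14 FPKM in IgM libraries (log2 difference 0.84 ± 0.15, adjusted p = 0.000164). Fastk, a member of the FAST kinase family whose mitochondrial form is needed for Nd6 RNA, averaged 38.9 ± 7.08 FPKM in IgG1 and 57.9 ± 4.64 FPKM in IgM libraries (log2 difference -0.58 ± 0.11, adjusted p = 0.000493). Angel2, a phosphatase of RNA ends, averaged 10.9 ± 2.00 FPKM in IgG1 and 16.7 ± 2.15 FPKM in IgM libraries (log2 difference -0.58 ± 0.15, adjusted p = 0.00424). Of 13 translation factors 4 rose and 1 fell (median 0.14), or 30.8% and 7.69%, with the smallest p for Taco1, an activator of Co1 translation, which averaged 8.86 ± 0.744 FPKM in IgG1 and 4.86 ± 0.933 FPKM in IgM libraries (log2 difference 0.76 ± 0.16, adjusted p = 0.00125). Tufm and Tsfm, elongation factors, had log2 differences of 0.40 (adjusted p = 0.00858) and 0.44 (adjusted p = 0.0223), and the call of Tsfm ended without IgG1 replicate 2, 3 or 4 or IgM replicate 2.

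Of 14 genes for replication of mitochondrial DNA, 0 rose and 2 fell (median -0.07, and 0.13 without J and D segments), which is 14.3% lower against 20.2% over all genes tested. Ssbp1, the single-stranded DNA-binding protein, averaged 65.6 ± 5.13 FPKM in IgG1 and 82.1 ± 5.77 FPKM in IgM libraries (log2 difference -0.32 ± 0.08, adjusted p = 0.00311), Dguok, a kinase that supplies nucleotides, was lower with a log2 difference of -0.67 (adjusted p = 0.0183), and Polg2, the accessory subunit of the polymerase, did not pass (adjusted p = 0.0830). Of 6 regulators of mitochondrial biogenesis tested, Gabpa fell (-0.56, adjusted p = 0.0017), its partner Gabpb1 rose (0.29, adjusted p = 0.0301) and Yy1 did not pass (median -0.09, and 0.06 without J and D segments). The call of Dguok ended without IgG1 replicate 1 or 2 or IgM replicate 2, and that of Gabpb1 without IgG1 replicate 2, 3, 4 or 5 or IgM replicate 2, 4 or 5. Quality control genes, 18 tested, had 4 higher and 5 lower (median -0.12, and 0.08 without J and D segments), or 22.2% and 27.8%, near the 18.1% and 20.2% over all genes tested. The mitophagy receptor Bnip3l averaged 28.7 ± 5.43 FPKM in IgG1 and 45.7 ± 7.25 FPKM in IgM libraries (log2 difference -0.66 ± 0.14, adjusted p = 0.00103), the kinase Pink1 had a log2 difference of -0.43 (adjusted p = 0.00192), and the fission factor Fis1 one of 0.32 (adjusted p = 0.00111).

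**Figure D5:**
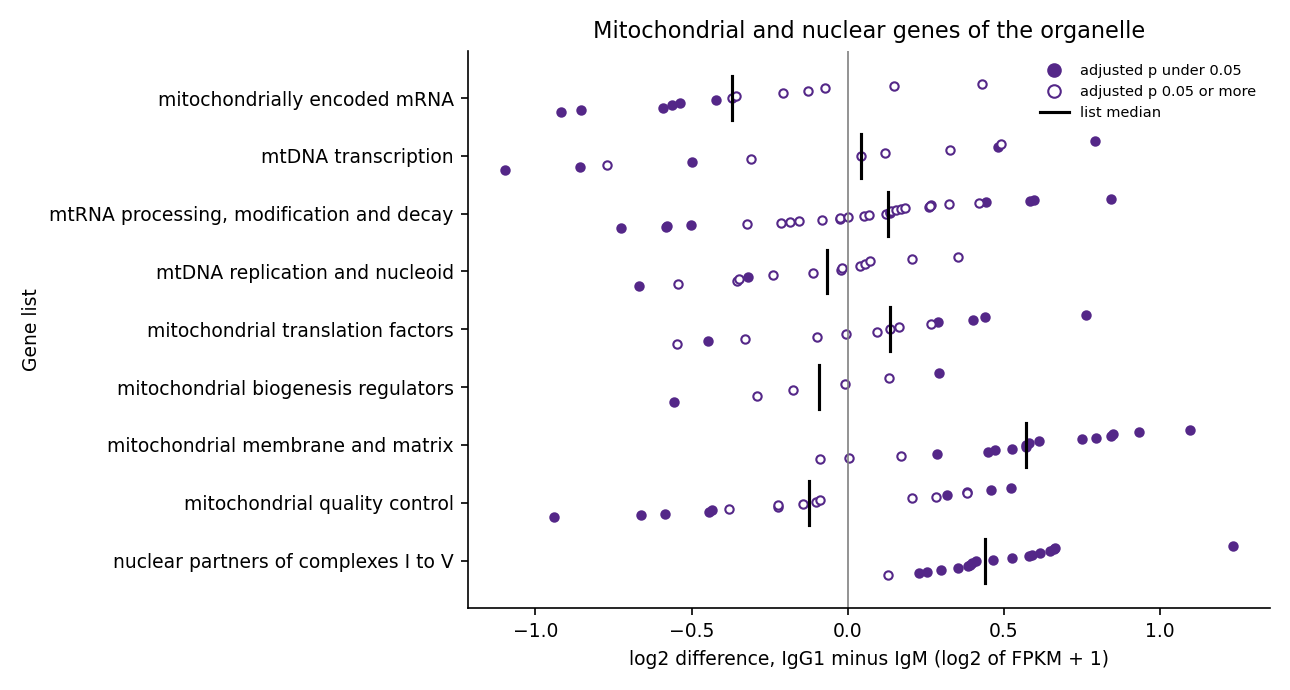
Log2 differences of FPKM + 1, IgG1 minus IgM, of the 13 mitochondrial mRNA genes and of 8 lists of nuclear genes that serve the organelle, with 1 point per gene, filled where the adjusted p was under 0.05, and a black line at the list median. The median was -0.37 for the mitochondrial mRNAs, which is the value of the low gene mt-Nd4l. It was 0.44 for the nuclear partners of complexes I to V and 0.57 for the membrane and matrix markers.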

How the data were processed

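Total RNA of sorted plasma cells came from a column kit (miRNeasy Micro) and libraries from a Takara kit for low inputs (SMART-Seq mRNA HT LP) that keeps no strand, with the kits named per the labels' protocols. HISAT2 2.1.0, Cufflinks 2.2.1 and Cuffdiff were used with GRCm38, per the submitters' processing notes, and their settings, the annotation release and the handling of fragments with several matches are not given in these sources. The authors deposited FPKM, 1 file per library, per the file headers. Because FPKM is relative to the library total, a large share for a few genes lowers all others. Groups came from the sample titles, with 5 IgG1 and 5 IgM libraries. No pair of libraries held identical values.

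Of 47719 identifiers, 47305 matched GENCODE M21 and 414 did not. limma 3.58.1 (R 4.3.3) was fitted to log2(FPKM + 1) over the 9900 genes that averaged 1 FPKM or more, with trended and robust eBayes, two-sided tests, Benjamini-Hochberg adjustment and a threshold of 0.05. A fold change on this scale understates that of low genes. The fit was tested on simulated data. The smallest steps of FPKM in 4125 single-transcript genes gave the depth, assuming fragments of 200 bases on average (with 100 bases, 25600000 to 36500000 fragments in IgG1 and 26200000 to 29700000 in IgM libraries). Fragment numbers per gene rest on this estimate. Nuclear copies were found with blastn 2.17.0 among GENCODE M21 transcripts, keeping matches of at least 80% identity over at least 50 bases, and called near-identical from 99%. Sums, ratios and plots used Python 3.11.15, pandas 2.3.3, numpy 2.4.6, scipy 1.17.1 and matplotlib 3.10.9.

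Named genes were all 37 members, the near-identical copies and the other nuclear match with a mean of at least 1 FPKM, and the 3 genes with the smallest p from each nuclear list. Tfb1m, Tfb2m, Polrmt, Tfam, Gm11410, Igkv4-57, Cd68, Cd4, Trac, Jchain and Xbp1 were named after their values were seen. Members, lists and tests were chosen with earlier results of these data known. Alternatives were other pseudocounts, filters, scalings, eBayes settings, array weights, a replicate block, addition of the copies and each library left out. Scaling to mt-Nd1 or to a total without J and D segments, and leaving out IgG1 replicates 4 and 5, were chosen after the data were seen. The numbers in the titles were not taken to pair libraries.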

Additional observations from a re-analysis of the deposited data

Results flagged for a closer look

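Within each group of 5 libraries, the highest or lowest library was set against the others. A library was taken to stand apart where its gap to the nearest made up more than 0.71 of the range of the group. This held for 15 of 68 groups examined, where chance marks about 1 in 20, and the groups share libraries and are not independent. That rate does not apply to the 5 tRNA genes above 0 in 1 library only. For these the gap is the whole range at any value.

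Single libraries stood above the rest for tRNA genes that were at 0 in the other 4 libraries of the group. These were mt-Tf in IgG1 replicate 1 (142 FPKM), mt-Tl1 in IgG1 replicate 4 (47.1 FPKM) and mt-Tr in IgG1 replicate 2 (74.8 FPKM), and mt-Tc in IgM replicate 2 (91.4 FPKM) and mt-Tt in IgM replicate 5 (391 FPKM). Among the mRNA genes, mt-Co2 was high in IgG1 replicate 1 (16.6 FPKM), and mt-Nd2 (209 FPKM) and mt-Atp8 (42.2 FPKM) were high in IgM replicate 5. IgM replicate 2 was low for both mt-Co1 (1326 FPKM) and mt-Cytb (1782 FPKM). IgM replicate 3 was low for mt-Rnr1 (77.4 FPKM), high for mt-Co3 (43.3 FPKM) and had the lowest ratio of summed rRNA to mRNA (0.0823). Of the nuclear copies, Gm28439 was low in IgG1 replicate 3 (1.61 FPKM) and Gm29216 high in IgM replicate 1 (34.4 FPKM). The split of mt-Co1 between IgG1 replicates 1 to 3 and replicates 4 and 5 is not found by this measure, which looks at 1 library at a time.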

How the results depend on the processing

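Under all 25 alternatives mt-Cytb, mt-Nd4, mt-Nd5 and mt-Nd6 were called lower in IgG1 libraries, with log2 differences of -0.58 to -0.17, -0.64 to -0.38, -0.92 to -0.65 and -0.98 to -0.71 and adjusted p up to 0.0489, 0.00119, 0.000336 and 0.000971 (limma). mt-Co2 was called in 24, all but the total without J and D segments. mt-Co1 was called in 13, and its call ended under 12, among them median-ratio scaling (adjusted p = 0.0539), no filter (0.0612) and quantile normalization (-0.29, 0.343), with adjusted p of 0.0539 to 0.343; the cause was not tested. The count of called members stayed between 5 and 7.

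The total without J and D segments moved the median of all genes from -0.05 to 0.13, so that 70.5% of calls were higher in place of 47.2%. It turned mt-Rnr2 to 0.058, mt-Nd1 to 0.14, mt-Nd2 to 0.082 and Gm28438 to 0.12. Quantile normalization (59.1% of calls higher) turned mt-Nd1 to 0.11 and Gm28438 to 0.19, and called mt-Nd2 lower (-0.18) and mt-Nd3 higher (0.64). Gm28438 also turned at a common level of mt-Nd1 (0.034) and without IgG1 replicates 4 and 5 (0.076). Single libraries left out gave -0.12 to 0.086 for Gm28438, -1.24 to 1.10 for mt-Ta and -0.036 to 0.32 for Gm10222, so that these turned too. None of the turned values passed.

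With immunoglobulin genes out of the denominator, the difference in the mitochondrial share was -0.329 percentage points, against -0.0611 in the report. A smaller denominator raises every share, so these 2 differences are not on a like scale. The IgG1 mean was 0.849 of the IgM mean with all genes, 0.768 without immunoglobulin genes and 0.907 without J and D segments. Same-numbered libraries had correlations of -0.036 to 0.097 between their deviations, and 1 of 5 IgG1 libraries correlated best with its own number, so no pairing was assumed. A replicate block gave 3701 calls over all genes, against 3792, and 5 of the 6 members, without mt-Co1 (adjusted p = 0.0867). Without a filter 2818 of 24060 genes were called.

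The number of fragments limits mt-Nd3, mt-Nd4l and the tRNAs most, and a near-identical nuclear copy limits the 6 genes between mt-Co1 and mt-Nd4.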
